A study of Mus musculus with 18 samples.

Results

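The EphB receptors and their ephrin-B ligands were followed across 3 genotypes of a mouse model of small cell lung cancer (SCLC). The members were taken by family, with earlier results of these data known. They were the receptor genes Ephb1, Ephb2, Ephb3, Ephb4 and Ephb6 and the ligand genes Efnb1, Efnb2 and Efnb3. They are 8 of the 46078 genes of the RNA-seq table. Of the 111664 peaks of open chromatin in the ATAC-seq table, 57 overlapped the stretch from 5000 bp upstream of a member's start to its end, and no peak was shared by 2 members.

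SCLC was induced in mice 8 weeks old with adenovirus carrying Cre recombinase, given into the lungs, and tumor cells were taken 28 weeks later. TKO mice carry floxed alleles that the labels spell Rb1L/L, Rbl1L/L and p53L/L, and the study's text names Rbl2 in place of Rbl1 in places. TKO;Carm1 mice (CARM1 knockout) carry in addition Carm1L/L, a floxed allele of the arginine methyltransferase gene Carm1. TKO;NfibR388K mice (NFIB mutant) carry instead a knock-in allele of the transcription factor gene Nfib, in which the arginine that CARM1 methylates is a lysine. Every mouse therefore carried the floxed tumor suppressor alleles, and TKO was the control with both Carm1 and Nfib intact. The Nfib allele is present in all cells of the animal, whereas the floxed genes are lost only where Cre acted. According to the study, cells were sorted for a tdTomato reporter that Cre switches on. Each genotype had 3 RNA-seq and 3 ATAC-seq libraries, labelled as 3 independent animals, and the study describes both assays as made on the same tumor biopsies.

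EphB receptors are tyrosine kinases of the cell membrane, and ephrin-Bs are ligands that also span the membrane, so the pair signals where cells touch. Binding starts forward signalling in the receptor's cell and reverse signalling in the ligand's cell, and both act on the actin cytoskeleton, on adhesion and on repulsion between cells. EphB6 has no kinase activity, and EphB4 prefers ephrin-B2. In development the family sets boundaries between tissues, guides axons and separates arteries from veins.

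In short, Ephb4 was 15.7-fold higher in CARM1 knockout tumors and 19.3-fold higher in NFIB mutant tumors than in TKO, while Efnb3 was 19.7-fold and 14.1-fold lower. Ephb1, low in TKO, was close to absent from both mutants. Ephb3 and Efnb1 were not called different in either mutant. In open chromatin, all 5 peaks of Ephb4 were called higher and all 12 peaks of Ephb1 called lower in both mutants. At 4 of these Ephb4 peaks every mutant library lay above TKO, as at 33.1% of all peaks tested. Over all peaks tested, 35.0% were called higher and 30.8% lower in both mutants, and peaks of the same gene are not independent.

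Counts summed to 15848866 to 20915057 per RNA-seq library and 26917178 to 47653979 per ATAC-seq library. Levels are given as CPM, the counts of a library scaled to a common total with edgeR's TMM factors. A library with at most 3 counts of a gene is treated as one where the gene was not detected. This limit and the intervals named as counting intervals cover counting error only, since PCR copies were not marked by molecular identifiers. The other intervals come from the edgeR fit and hold the spread between libraries. Carm1 itself was at 97.6, 103 and 44.5 CPM in TKO and at 63.3, 79.0 and 50.7 CPM in CARM1 knockout libraries, so counts over the whole gene, which also cover exons outside a deletion, did not separate these genotypes. Nfib was at 420 to 579 CPM in TKO, 74.4 to 216 CPM in CARM1 knockout and 83.2 to 105 CPM in NFIB mutant libraries, and the R388K change leaves no mark in gene counts.

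The labels call all libraries SCLC cells, and the defining neuroendocrine markers were low in most mutant libraries. The 12 neuroendocrine genes added up to 1851 to 4107 CPM in TKO libraries, 59.2, 188 and 1889 CPM in CARM1 knockout replicates 1, 2 and 3, and 33.5 to 51.4 CPM in NFIB mutant libraries. All 12 averaged at least 1 CPM in TKO and in CARM1 knockout, the latter through replicate 3, but only 2 did in the NFIB mutant. The 6 fibroblast markers summed to 11.1 to 63.3 CPM in TKO, 14434 to 25754 CPM in CARM1 knockout and 9464 to 15888 CPM in NFIB mutant libraries, with 5, 6 and 6 of them at 1 CPM on average. The 7 markers of pericytes and smooth muscle summed to 7.74 to 17.3, 772 to 2551 and 417 to 772 CPM (4, 6 and 5 at 1 CPM), and the 12 leukocyte markers to 4.42 to 62.6, 269 to 2982 and 82.1 to 1155 CPM (5, 9 and 9 at 1 CPM, with Cd3e at 0 in all libraries). The 10 lung epithelium markers ranged over 282 to 634, 3.59 to 879 and 3.49 to 2801 CPM (9, 7 and 9 at 1 CPM). The 10 endothelial markers summed to 6.33 to 22.4, 4.66 to 77.1 and 2.28 to 12.7 CPM (3, 4 and 4 at 1 CPM), with Emcn and Cldn5 at 0 everywhere. In single libraries Vwf or Kdr made up most of that sum, Cdh5 was called higher in both mutants and Kdr lower in the NFIB mutant (log2 fold change -4.71, adjusted p = 0.0620). These shifts run along with the genotypes and so with every difference from TKO below, and their part in those differences was not tested. In bulk libraries, fewer cells of a type and less RNA per cell cannot be told apart.

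The DNA just upstream of 4 receptor genes is shown here because the start-site peaks of these genes went different ways. They were higher for Ephb4 and lower for Ephb6 and Ephb1. That of Ephb3 was only slightly lower (log2 fold change -0.54 and -0.55), and its calls depended on how libraries were scaled. Each sequence is the last 250 bases before the start of the gene in RefSeq (GRCm38.p6), read 5′ to 3′ along the gene. Capitals mark matches on either strand to the short NFI site (TTGGC, or GCCAA in reverse) or to the E-box CAGCTG, and the NFI full site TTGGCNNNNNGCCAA and the AP-1 site TGANTCA were searched as well.
Ephb4, chr5:137349859-137350108, plus strand: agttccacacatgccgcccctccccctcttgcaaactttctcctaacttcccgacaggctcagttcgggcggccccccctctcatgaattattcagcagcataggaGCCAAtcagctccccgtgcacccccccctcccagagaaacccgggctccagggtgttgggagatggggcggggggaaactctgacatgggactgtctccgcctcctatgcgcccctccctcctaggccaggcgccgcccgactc
Ephb6, chr6:41605261-41605510, plus strand: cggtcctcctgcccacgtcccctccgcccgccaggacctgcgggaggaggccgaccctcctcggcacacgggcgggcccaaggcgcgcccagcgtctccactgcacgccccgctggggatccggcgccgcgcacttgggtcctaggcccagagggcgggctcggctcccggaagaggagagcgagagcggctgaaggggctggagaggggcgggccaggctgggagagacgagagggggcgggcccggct
Ephb1, chr9:102354694-102354943, minus strand: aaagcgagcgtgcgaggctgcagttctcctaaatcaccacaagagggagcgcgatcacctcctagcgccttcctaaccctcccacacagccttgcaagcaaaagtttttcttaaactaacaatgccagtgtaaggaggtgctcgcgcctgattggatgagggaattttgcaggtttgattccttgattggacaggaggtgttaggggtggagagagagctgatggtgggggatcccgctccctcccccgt
Ephb3, chr16:21204545-21204794, plus strand: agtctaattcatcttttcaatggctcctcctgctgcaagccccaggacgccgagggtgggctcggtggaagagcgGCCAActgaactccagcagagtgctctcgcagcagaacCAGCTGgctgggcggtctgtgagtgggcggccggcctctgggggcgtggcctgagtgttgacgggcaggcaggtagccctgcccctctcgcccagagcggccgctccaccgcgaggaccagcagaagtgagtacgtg

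RefSeq gave a promoter of 300 bases, 250 before the start and 50 after, for 7 of the 8 members, all but Efnb3. Ephb6 and Ephb1 had no match to any of these motifs in that window. Ephb4, Ephb2, Efnb2 and Ephb3 had 1 short NFI site each and Efnb1 had 2, against 46.7% of all 32851 promoters with at least 1. The only E-box was that of Ephb3, and 16.3% of all promoters held one. No member promoter held a full NFI site or an AP-1 site, and 0.0365% and 7.81% of all promoters did. The 7 member promoters were rich in G and C, at 55.7 to 76.3%, against a median of 52.7% over all promoters.

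Windows of 300 bases at the middles of 3 intronic Ephb2 peaks are shown because these peaks carried the contrast within that gene. The first had the largest mean fall over both mutants of all Ephb2 peaks, the second is the only member peak with a full NFI site in its window, and the third rose most. They are read along the plus strand of GRCm38.p6, opposite to the gene, and capitals mark the same motifs and the AP-1 site.
Ephb2 peak 119178 bp into the gene, chr4:136716661-136716960, plus strand: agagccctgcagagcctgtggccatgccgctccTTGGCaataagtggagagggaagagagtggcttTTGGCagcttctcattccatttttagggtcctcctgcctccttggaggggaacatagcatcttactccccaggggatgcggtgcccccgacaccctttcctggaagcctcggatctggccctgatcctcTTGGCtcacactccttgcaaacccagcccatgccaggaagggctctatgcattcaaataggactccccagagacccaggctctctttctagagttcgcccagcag
Ephb2 peak 19105 bp into the gene, chr4:136816734-136817033, plus strand: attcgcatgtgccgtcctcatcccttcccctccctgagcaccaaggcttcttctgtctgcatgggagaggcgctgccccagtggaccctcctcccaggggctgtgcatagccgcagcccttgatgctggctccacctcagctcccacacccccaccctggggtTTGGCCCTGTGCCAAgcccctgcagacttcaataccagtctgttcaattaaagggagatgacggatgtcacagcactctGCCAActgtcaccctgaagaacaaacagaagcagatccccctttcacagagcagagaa
Ephb2 peak 27483 bp into the gene, chr4:136808356-136808655, plus strand: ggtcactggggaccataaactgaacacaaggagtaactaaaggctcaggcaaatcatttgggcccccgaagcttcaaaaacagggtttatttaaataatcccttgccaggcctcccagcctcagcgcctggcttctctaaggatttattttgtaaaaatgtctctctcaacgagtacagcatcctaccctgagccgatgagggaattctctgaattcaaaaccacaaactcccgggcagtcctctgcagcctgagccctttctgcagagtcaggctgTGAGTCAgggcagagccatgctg

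Ephb4 encodes the receptor that ephrin-B2 binds and that is best known from veins. Its level was 6.43, 2.93 and 8.58 CPM in TKO, 81.8, 127 and 72.7 CPM in CARM1 knockout and 141, 90.0 and 116 CPM in NFIB mutant libraries. Even the lowest mutant library lay far above the highest TKO library. The log2 fold change against TKO was 3.97 ± 0.44 (SE, n = 3 per genotype, edgeR adjusted p = 0.00109) in CARM1 knockout tumors and 4.27 ± 0.45 (adjusted p = 0.000752) in NFIB mutant tumors. Both contrasts use the same TKO libraries. Leaving out any single library kept the first between 3.64 and 4.37 and the second between 3.95 and 4.66. Exons of Ephb4 overlap those of Zan on the opposite strand, and the strand setting of the counting is not given in the sources used here, so reads of the pair may not be told apart. Among the endothelial markers, Cdh5 was called higher in both mutants (log2 fold change 4.21 and 5.79, adjusted p = 0.0443 and 0.0126), at 0.0480, 0 and 0 CPM in TKO, 0.338, 0.699 and 0.168 CPM in CARM1 knockout and 0.243, 2.77 and 0.634 CPM in NFIB mutant libraries. In every TKO library Cdh5 was under the detection limit, so a few counts set these folds. It was the only one of these markers called higher, and Kdr was called lower in the NFIB mutant. Over the 7 endothelial markers tested, the median log2 fold change was 1.34 for the CARM1 knockout and -0.27 for the NFIB mutant. The sum of all 10 was 6.33 to 22.4 CPM in TKO, against 4.66 to 77.1 and 2.28 to 12.7 CPM in the mutants. Marker sums of fibroblasts, of pericytes and smooth muscle and of leukocytes were higher in every mutant library, and those of neuroendocrine cells lower in most. The fibroblast sum was 11.1 to 63.3 CPM in TKO, 14434 to 25754 CPM in CARM1 knockout and 9464 to 15888 CPM in NFIB mutant libraries. The part of endothelial cells or of any other cell type in the Ephb4 level was not tested.

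**Figure D1:**
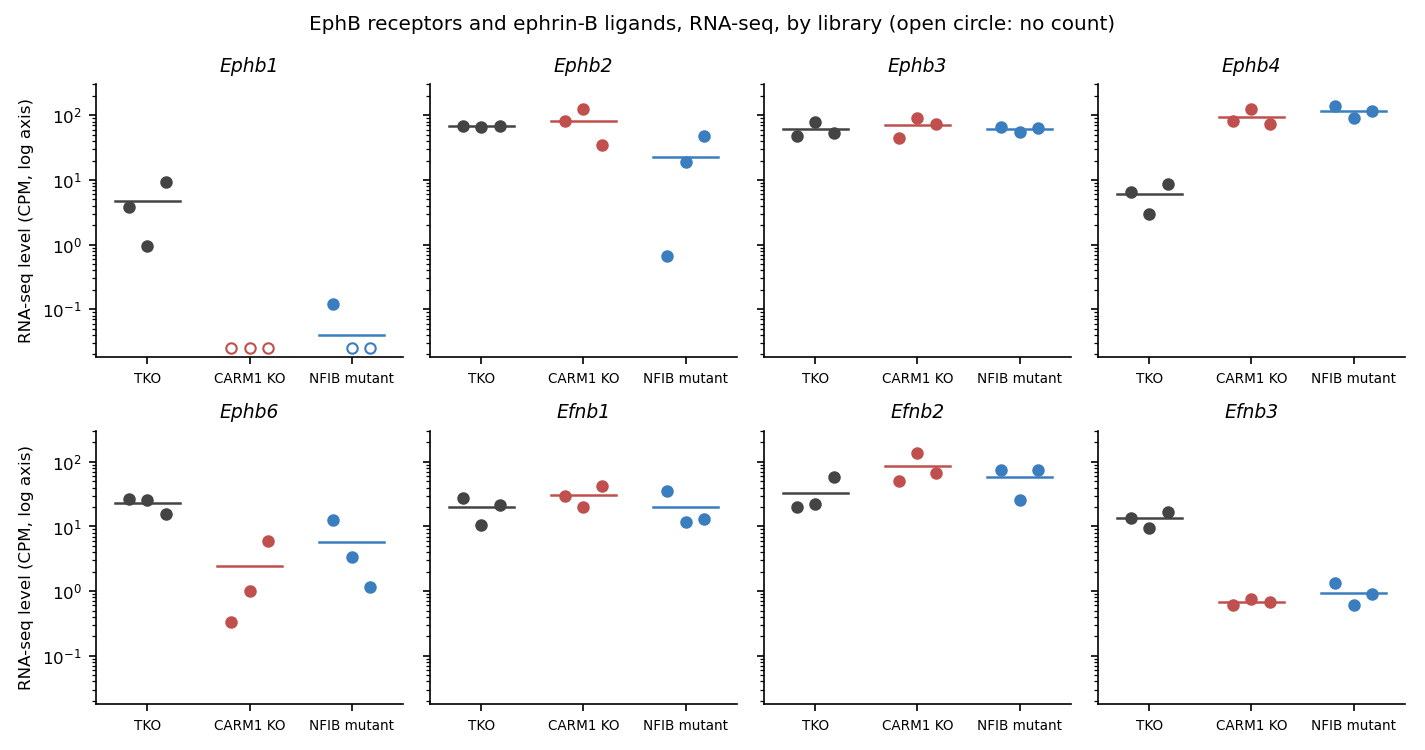
RNA-seq level of the 8 genes in CPM on a log axis, 1 point per library and a line at the mean of the 3 libraries of a genotype, with open circles for libraries without a count. Ephb4 is higher in all 6 mutant libraries than in the 3 TKO libraries, Ephb1 and Efnb3 are lower, and Ephb3 and Efnb1 overlap between the genotypes.

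Ephb1, a receptor of axon guidance, was at 3.84, 0.961 and 9.29 CPM in TKO. No CARM1 knockout library held a count, and the NFIB mutant libraries held 2 counts in replicate 1 and 0 in the others. As a ratio of highest to lowest, its TKO libraries differed by more than those of any other member, while the mutants shared a level at or under the detection limit. Set against 3 counts per library, CARM1 knockout tumors held at least 25.8-fold less, or at least 13.2-fold less without TKO replicate 3. Set against the same 3 counts per library, the NFIB mutant gives nearly the same value, 25.3-fold, or 12.9-fold without TKO replicate 3. Its ratio from the 2 counts themselves, pooled over libraries, was 114-fold (95% exact counting interval 31.3 to 946), and 56.5-fold without TKO replicate 3. The edgeR test called both falls (adjusted p = 0.0136 and 0.0177). Exons of Ephb1 overlap the antisense RNA Gm26846, with the same limit on strand.

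Ephb6, the receptor without kinase activity, was at 26.6, 25.9 and 15.5 CPM in TKO, 0.338, 0.990 and 6.06 CPM in CARM1 knockout and 12.6, 3.39 and 1.14 CPM in NFIB mutant libraries. All 6 mutant libraries lay below TKO, though they were spread over more than an order of magnitude. The fall was called in CARM1 knockout tumors (log2 fold change -3.20 ± 1.19, edgeR adjusted p = 0.0701) but not in NFIB mutant tumors (-1.99 ± 1.13, adjusted p = 0.185). Over the alternatives the adjusted p of the former ran from 0.00923 to 0.173 and 6 of 16 lost the call, among them the fits without TKO replicate 1 or 2 or without CARM1 knockout replicate 1 or 2. Without CARM1 knockout replicate 3, the library with neuroendocrine markers, the change was -5.02, and without NFIB mutant replicate 1 the change in the other mutant was -3.31 (adjusted p = 0.0802). The 2 mutants were not called different for Ephb6 (difference -1.21, 95% interval -3.79 to 1.37).

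Ephb2, a receptor best known from axon guidance and from the sorting of intestinal crypt cells, was nearly level in TKO and spread widely in both mutants. It was at 68.1, 65.9 and 69.5 CPM in TKO, 82.3, 128 and 34.3 CPM in CARM1 knockout and 0.668, 19.0 and 47.4 CPM in NFIB mutant libraries. All 3 NFIB mutant libraries were below TKO, while those of CARM1 knockout lay on both sides. Neither contrast was called (log2 fold change 0.26, 95% interval -2.17 to 2.70, adjusted p = 0.861, and -1.60, interval -4.10 to 0.90, adjusted p = 0.256, both edgeR). With library totals in place of TMM the first became -0.03. The CARM1 knockout interval is wide enough to hold several-fold changes either way. That of the NFIB mutant holds a several-fold fall, but no rise beyond 0.90 on the log2 scale.

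Ephb3, which acts beside Ephb2 in crypt sorting, was at 48.2, 80.1 and 53.5 CPM in TKO, 43.9, 91.6 and 74.7 CPM in CARM1 knockout and 65.4, 56.1 and 63.1 CPM in NFIB mutant libraries. The 3 ranges overlapped. Its log2 fold changes were 0.21 (95% interval -0.47 to 0.89) and 0.02 (-0.66 to 0.70), the narrowest intervals of all members, and both turn negative with library totals (-0.05 and -0.29).

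Among the ligands, Efnb3, known from the midline of the developing spinal cord, was at 13.6, 9.56 and 16.9 CPM in TKO. It was at 0.609, 0.757 and 0.673 CPM in CARM1 knockout and at 1.34, 0.615 and 0.888 CPM in NFIB mutant libraries. The mutants lay close together and none came near TKO. The log2 fold change was -4.28 ± 0.50 (SE, n = 3 per genotype, edgeR adjusted p = 0.00118) and -3.81 ± 0.49 (adjusted p = 0.00128), with ranges of -4.47 to -4.04 and -4.13 to -3.57 over the fits without 1 library. Efnb3 lies 20154 bp from Trp53, which is floxed in all 3 genotypes.

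Efnb2, the ligand of arteries and the main partner of EphB4, was at 19.95, 22.2 and 57.3 CPM in TKO, 50.6, 138 and 66.5 CPM in CARM1 knockout and 75.0, 25.4 and 75.0 CPM in NFIB mutant libraries. TKO replicate 3 overlapped both mutants. The log2 fold change was 1.36 (95% interval -0.04 to 2.76, edgeR adjusted p = 0.114) and 0.82 (-0.57 to 2.20, adjusted p = 0.294), and neither was called. Without TKO replicate 3 both were (2.05, adjusted p = 0.0430, and 1.495, adjusted p = 0.0859), and in CARM1 knockout also with DESeq2 (1.33, adjusted p = 0.0880) and without NFIB mutant replicate 2 (1.37, adjusted p = 0.0892).

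Efnb1, the X-linked ligand, was at 27.2, 10.5 and 21.6 CPM in TKO, 30.0, 20.1 and 42.6 CPM in CARM1 knockout and 35.3, 11.8 and 13.3 CPM in NFIB mutant libraries. The groups overlapped, at log2 fold changes of 0.64 (95% interval -0.59 to 1.88) and 0.02 (-1.21 to 1.25), and the latter was -0.30 with library totals.

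Counted over the family, the CARM1 knockout had 1 of 8 members called higher and 3 called lower, against 20.5% and 18.3% of the 15514 genes tested, where called means an adjusted p under 0.1 and a log2 fold change of at least 0.8 either way. The NFIB mutant had 1 called higher and 2 called lower, against 22.3% and 23.5%. All 6 mutant libraries lay above the 3 TKO libraries for 1 member, Ephb4, and below them for 3, Ephb1, Ephb6 and Efnb3, as they did for 22.3% and 23.3% of all genes tested. The median log2 fold change of the 8 was 0.24 and -0.79, beside -0.03 and -0.05 over all genes. Leaving out CARM1 knockout replicate 3 gave the same counts of 1 and 3. Between the 2 mutants no member was called, nor was any gene (0.0% of 15514 with edgeR, of which 1415 had an unadjusted p under 0.05, and 315 higher and 220 lower with DESeq2).

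To compare genes with each other, CPM were divided by the exon length in kb. On this scale the receptors changed places. In TKO libraries Ephb3 made up 33.5 to 48.4% of the summed receptor level, Ephb6 19.7 to 32.6%, Ephb2 20.96 to 26.4%, Ephb4 2.53 to 8.86% and Ephb1 0.550 to 6.36%. Ephb4 made up 50.1 to 57.2% in CARM1 knockout and 64.1 to 69.6% in NFIB mutant libraries, where Ephb3 followed with 21.4 to 36.0% and 22.6 to 27.9%. The receptor sum itself was 20.9 to 24.9 CPM per kb in TKO, 30.9 to 51.6 in CARM1 knockout and 30.2 to 43.6 in NFIB mutant libraries, all above TKO. Of the ligand sum, Efnb3 made up 26.6 to 32.3% in TKO but 0.905 to 1.18% and 1.85 to 2.65% in the mutants, so that Efnb1 and Efnb2 carried nearly all of it. The ligand sum overlapped between genotypes, at 9.29 to 19.9, 16.3 to 26.3 and 7.31 to 21.6 CPM per kb.

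**Figure D2:**
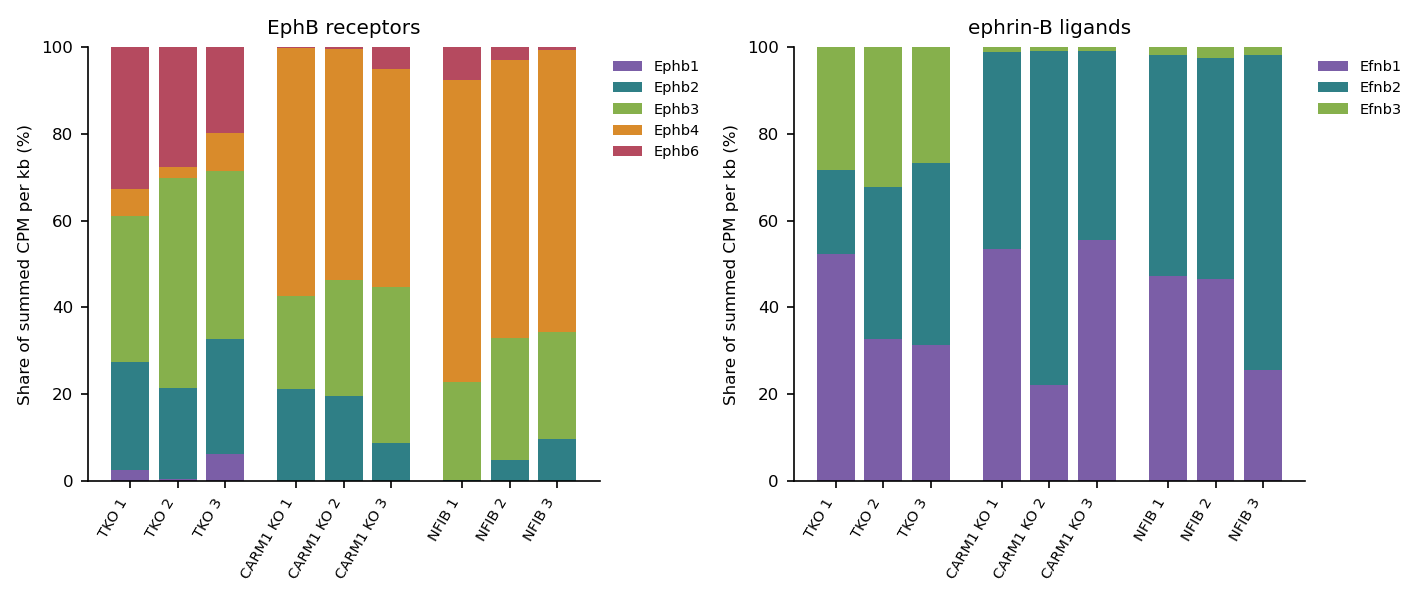
Share of each gene in the summed CPM per kb of the 5 receptors (left) and the 3 ligands (right), 1 bar per library, in percent. Ephb4 grows from at most 8.86% in TKO to at least 50.1% in every mutant library, and Efnb3 shrinks from at least 26.6% to at most 2.65%.

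Ordered by mean CPM per kb, TKO ran Ephb3 (9.13), Ephb6 (6.02), Efnb1 (5.73), Ephb2 (5.38), Efnb2 (4.84), Efnb3 (4.20), Ephb4 (1.29) and Ephb1 (0.671). Only the steps from Ephb3 to Ephb6 and from Efnb3 to Ephb4 separated neighbours whose libraries did not overlap. CARM1 knockout ran Ephb4 (20.2), Efnb2 (12.4), Ephb3 (10.5), Efnb1 (8.96), Ephb2 (6.45), Ephb6 (0.653), Efnb3 (0.214) and Ephb1 (0), with clear steps after Ephb2 and after Efnb3. NFIB mutant ran Ephb4 (24.9), Ephb3 (9.26), Efnb2 (8.53), Efnb1 (5.82), Ephb2 (1.77), Ephb6 (1.52), Efnb3 (0.297) and Ephb1 (0.00578), with clear steps after Ephb4 and after Efnb3. Ephb4 thus stood near the bottom in TKO and at the top in both mutants.

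Chromatin was read as ATAC-seq peaks, places where a transposase can cut. Of the 57 member peaks, the CARM1 knockout had 9 called higher and 37 called lower (15.8% and 64.9%), against 38.7% and 32.4% of the 111116 peaks tested, where called means an adjusted p under 0.1 and a log2 fold change of at least 0.5 either way. The NFIB mutant had 7 called higher and 43 called lower (12.3% and 75.4%), against 39.3% and 34.0%. Both mutants shared the call for 7 higher and 37 lower peaks, beside 35.0% and 30.8% of all peaks, and no member peak was called in opposite directions. The 6 mutant libraries were clear of the 3 TKO libraries at 5 higher and 37 lower member peaks, beside 33.1% and 28.6%. The median log2 fold change was -2.51 and -2.61 over member peaks, and 0.22 in both contrasts over all peaks. By gene, Ephb1 and Ephb2 hold 38 of these peaks between them, and peaks of 1 gene are not independent of each other. Without CARM1 knockout replicate 3 the counts were 9 and 34. No member peak was called between the mutants, nor was any peak by edgeR (0.0% of 111116, of which 6814 had an unadjusted p under 0.05, and 523 higher and 537 lower with DESeq2).

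**Figure D3:**
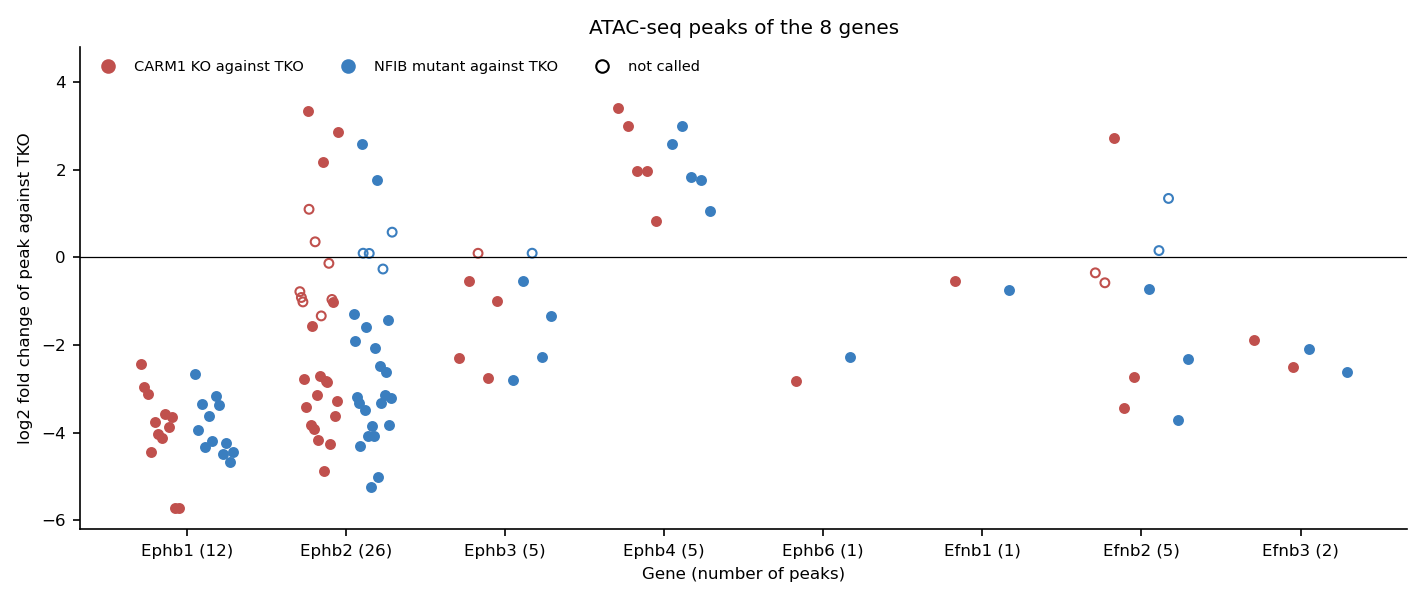
Log2 fold change against TKO of each of the 57 ATAC-seq peaks, by gene, for CARM1 knockout (red) and NFIB mutant (blue), filled where called and open where not, and ordered within a gene by distance from its start. All Ephb1 points lie below 0 and all Ephb4 points above, while Ephb2 has points on both sides.

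At the start of Ephb4 the peak chr5:137348696-137351782 held 2.13, 2.32 and 8.15 CPM in TKO, 33.3, 37.2 and 30.2 CPM in CARM1 knockout and 35.1, 34.4 and 30.6 CPM in NFIB mutant libraries. It was 7.99-fold and 7.95-fold higher (edgeR adjusted p = 0.000347 and 0.000308), and the mutants were nearly equal. The other 4 peaks of Ephb4 rose as well. They include chr5:137375106-137378077, an intronic peak near the gene's end, at 6.47, 4.11 and 6.84 CPM in TKO, 8.70, 11.7 and 10.6 CPM in CARM1 knockout and 12.97, 10.7 and 12.6 CPM in NFIB mutant libraries (adjusted p = 0.0299 and 0.00993). RNA level and start peak of Ephb4 were thus both higher in every mutant library than in TKO.

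At the start of Ephb1 the peak chr9:102353219-102355204 held 18.1, 15.7 and 38.9 CPM in TKO, 3.64, 6.35 and 3.38 CPM in CARM1 knockout and 4.51, 3.20 and 3.71 CPM in NFIB mutant libraries. It fell 5.43-fold and 6.37-fold (adjusted p = 0.000712 and 0.000411) yet kept a clear signal in mutants whose Ephb1 RNA was not detected. The same peak also overlaps the antisense RNA Gm26846, so its signal may not be that of Ephb1 alone. The 11 intronic peaks, up to 409213 bp into the gene, fell further, with log2 fold changes between -5.73 and -2.97 in CARM1 knockout and between -4.67 and -3.17 in NFIB mutant tumors.

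Ephb6 had a single peak, chr6:41604193-41607020, at its start. It held 65.2, 95.0 and 52.2 CPM in TKO, 4.91, 15.8 and 9.16 CPM in CARM1 knockout and 17.6, 13.3 and 12.8 CPM in NFIB mutant libraries, with no overlap. The falls of 7.11-fold and 4.87-fold were called in both mutants (adjusted p = 0.000212 and 0.000532), whereas its RNA was called only in CARM1 knockout, and the difference between the mutants in RNA did not pass the test. Efnb3 had 2 peaks. That at its start, chr11:69559499-69560661, held 5.03, 3.37 and 5.24 CPM in TKO, 1.34, 1.52 and 0.798 CPM in CARM1 knockout and 1.52, 1.08 and 0.608 CPM in NFIB mutant libraries, a fall of 3.73-fold and 4.24-fold (adjusted p = 0.00606 and 0.00361).

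**Figure D4:**
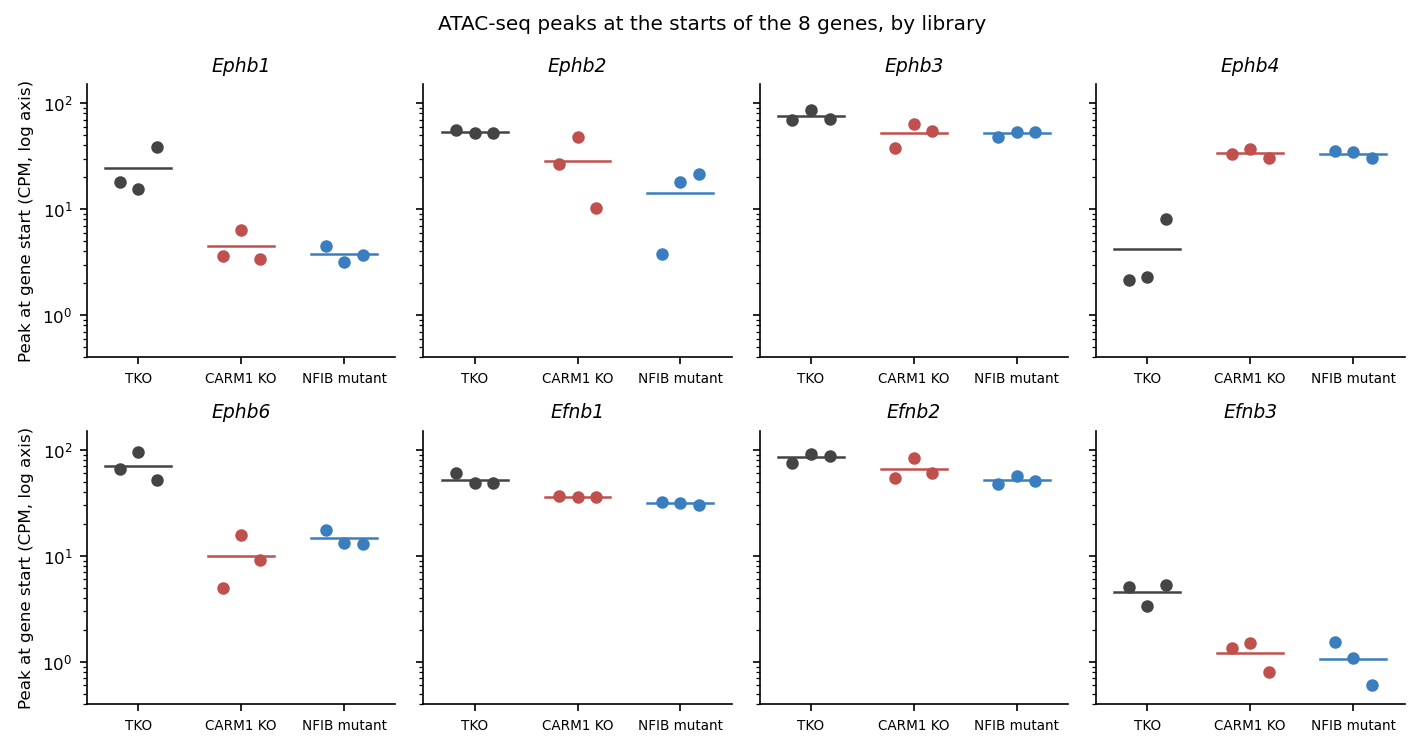
ATAC-seq level of the peak at the start of each of the 8 genes in CPM on a log axis, 1 point per library and a line at the mean of a genotype. The Ephb4 peak is higher in all mutant libraries than in TKO, those of Ephb1, Ephb6 and Efnb3 are several-fold lower, and those of Ephb3, Efnb1 and Efnb2 differ by less than 2-fold between the means.

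The start peaks of Ephb3, Efnb1 and Efnb2 were tall in all genotypes and depended on how libraries were scaled. That of Ephb3, chr16:21203986-21208845, held 69.6, 86.4 and 71.1 CPM in TKO, 37.7, 64.1 and 54.8 CPM in CARM1 knockout and 48.4, 53.6 and 53.4 CPM in NFIB mutant libraries. Its log2 fold changes of -0.54 and -0.55 were called, but were -0.18 and -0.10, not called, when libraries were scaled on start-site peaks of genes with nearly constant RNA, and 0.06 and 0.03 with library totals. The Efnb1 peak, chrX:99134777-99139433, held 60.2, 48.2 and 48.3 CPM in TKO, 36.3, 36.1 and 35.5 CPM in CARM1 knockout and 32.4, 31.4 and 29.8 CPM in NFIB mutant libraries. Its changes of -0.54 and -0.74 were called, and became -0.17 and -0.29 by constant genes and 0.04 and -0.17 by totals, not called. The Efnb2 peak, chr8:8657791-8662382, held 75.1, 90.1 and 87.9 CPM in TKO, 54.2, 83.7 and 60.2 CPM in CARM1 knockout and 47.7, 56.4 and 50.1 CPM in NFIB mutant libraries, changes of -0.35, not called, and -0.72, called (by constant genes 0.0065 and -0.27, not called, and by median-ratio factors -0.53 and -0.86, called). The start peaks of Ephb1, Ephb4, Ephb6 and Efnb3 were called with the same sign under all 5 scalings in both mutants, and that of Ephb2 in the NFIB mutant.

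Ephb2 spanned the most peaks, 26. Calls there numbered 3 rises and 15 falls in CARM1 knockout and 2 rises and 20 falls in the NFIB mutant. Among all peaks tested, rises made up 38.7% and falls 32.4% for the CARM1 knockout, and 39.3% and 34.0% for the NFIB mutant. These 26 peaks belong to 1 gene and are not independent of each other. The intronic peak chr4:136716137-136717483, whose middle is shown above, held 16.9, 21.3 and 27.1 CPM in TKO, 0.775, 0.787 and 0.653 CPM in CARM1 knockout and 0.478, 0.770 and 0.745 CPM in NFIB mutant libraries. It fell 29.5-fold and 32.7-fold (edgeR adjusted p = 1.45e-05 and 1.18e-05) and was almost closed in all 6 mutant libraries, CARM1 knockout replicate 3 included. The intronic peak chr4:136749312-136751589 fell 17.9-fold and 14.5-fold, chr4:136783373-136784356 fell 15.2-fold and 16.9-fold, and chr4:136779966-136781117 fell 8.87-fold and 37.9-fold. The peak with the full NFI site, chr4:136816450-136817317, went from 9.43, 13.04 and 4.65 CPM in TKO to 0.413, 0.403 and 1.74 CPM in CARM1 knockout and 0.179, 0.914 and 0.275 CPM in NFIB mutant libraries.

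In the opposite direction, the intronic peak chr4:136807908-136809103 held 0.669, 0.556 and 1.06 CPM in TKO, 7.52, 10.8 and 4.62 CPM in CARM1 knockout and 0.657, 5.12 and 7.85 CPM in NFIB mutant libraries. It was called higher in both mutants (log2 fold change 3.33 and 2.59, adjusted p = 0.00362 and 0.0109), although NFIB mutant replicate 1 lay within TKO. The peak over the last exons, chr4:136648778-136651092, was called in CARM1 knockout only, at 3.92, 2.26 and 7.22 CPM in TKO, 19.6, 58.7 and 18.2 CPM in CARM1 knockout and 1.88, 6.90 and 11.04 CPM in NFIB mutant libraries, and its difference between the mutants was not called (adjusted p = 0.646). Both peaks, and the one with the full NFI site, were picked for description after their values were seen.

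**Figure D5:**
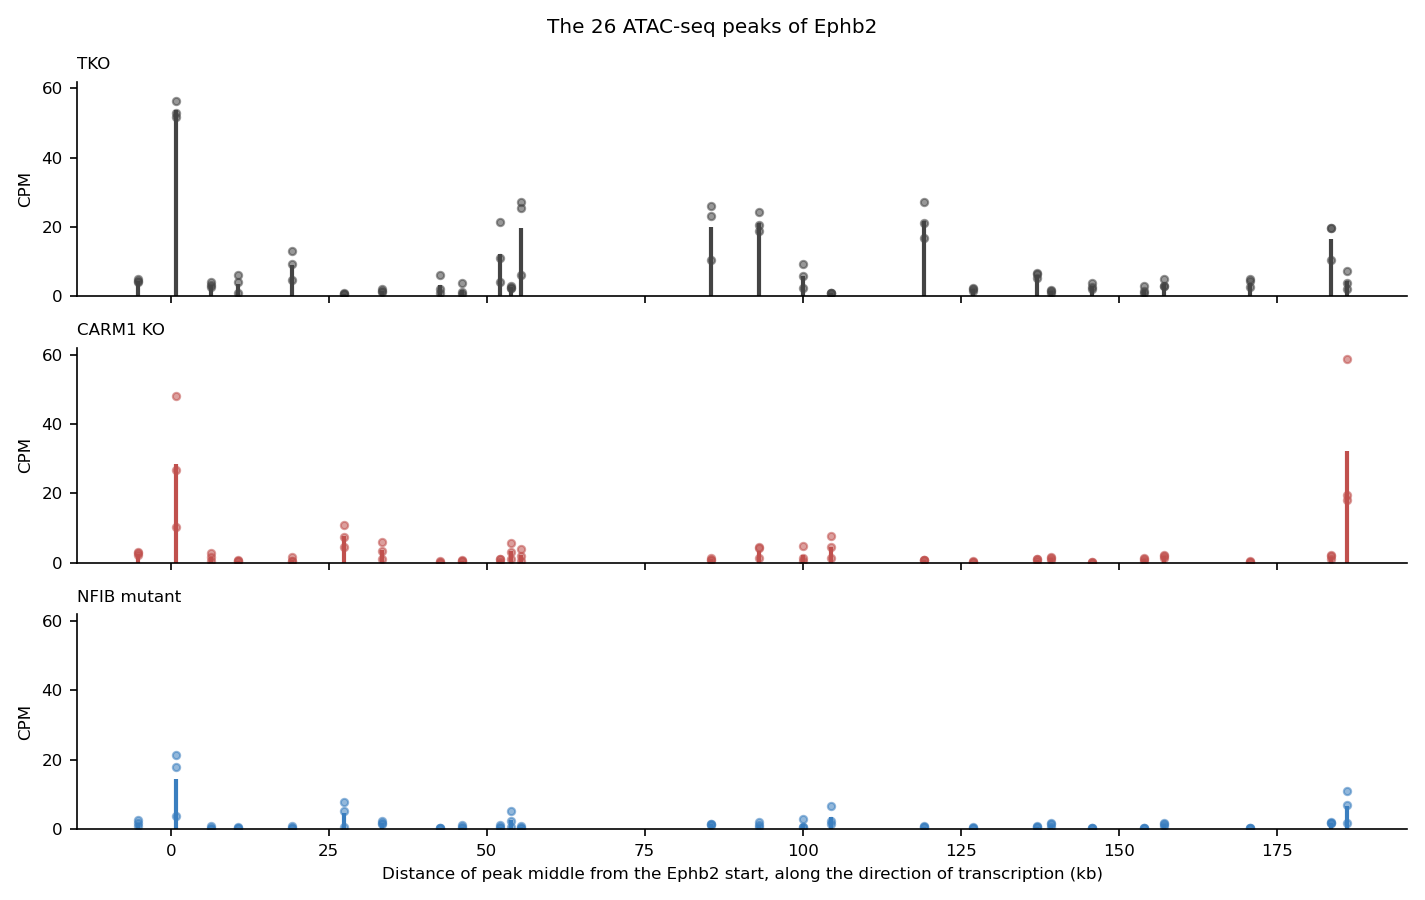
ATAC-seq level (CPM) of the 26 Ephb2 peaks against the distance of the peak's middle from the gene's start in kb, along the direction of transcription, with a bar at the mean of 3 libraries and a point per library, 1 panel per genotype. The intronic peaks with a TKO mean of at least 12.2 CPM are at most 4.41 CPM in every mutant library. The peak at the start runs from 3.76 to 48.2 CPM in the mutant libraries, and the one near the end is tallest in CARM1 knockout.

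The start peak of Ephb2, chr4:136833134-136837189, held 56.4, 51.9 and 52.8 CPM in TKO, 26.8, 48.2 and 10.3 CPM in CARM1 knockout and 3.76, 17.9 and 21.4 CPM in NFIB mutant libraries. Its fall was called in the NFIB mutant (log2 fold change -1.90, adjusted p = 0.0153) and not in CARM1 knockout (-0.92, adjusted p = 0.181), and the mutants were not called different (0.98, adjusted p = 0.889). Taken by replicate number, its order in the 6 mutant libraries was close to that of the RNA. CARM1 knockout replicates 2 and 1 and NFIB mutant replicate 3 were the highest in both assays, and NFIB mutant replicate 1 was the lowest. The rising intronic peak at chr4:136807908-136809103 had these same libraries highest and lowest. Other members did not all match in this way. Efnb2 RNA was lowest in NFIB mutant replicate 2 (25.4 CPM), where its start peak was the highest of that genotype (56.4 CPM). In CARM1 knockout, Ephb6 was highest in replicate 3 by RNA (6.06 CPM) but in replicate 2 by its peak (15.8 CPM). Whether equal numbers mean the same tumor is not given in the sources used here.

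Over all member peaks, motif matches in the middle 300 bases were compared as shares, with no test. Of the 37 peaks called lower in both mutants, 59.5% held an short NFI site, 40.5% the E-box and 8.11% the AP-1 site, beside 56.9%, 28.1% and 7.89% of the 34174 peaks of the whole table called lower in both. Of the 7 called higher in both, 28.6% held the short site, 0 the E-box and 28.6% the AP-1 site, beside 46.6%, 18.8% and 41.7% of 38887. A full NFI site, which also counts as a short one, was in 1 of the 37, and in 0.208% of the 34174.

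The wider pathway was taken as 49 genes in 4 lists, all tested. Calls numbered 11 rises and 4 falls in CARM1 knockout and 12 and 6 in the NFIB mutant of these 49, beside the 20.5% and 18.3% and the 22.3% and 23.5% of all genes called in these directions, while none was called between the mutants. Of the 2 receptors and ligands of the other class that cross over to EphB or ephrin-B, the ligand Efna5 fell from 74.0, 93.5 and 38.4 CPM in TKO to 1.29, 7.40 and 12.5 CPM in CARM1 knockout and 12.2, 0.923 and 7.29 CPM in NFIB mutant libraries (edgeR adjusted p = 0.0413 and 0.0339). The receptor Epha4 was not called, at 24.0 to 31.4 CPM in TKO, 4.06 to 96.2 CPM in CARM1 knockout and 1.65 to 18.2 CPM in NFIB mutant libraries.

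Forward signalling had 27 genes, of which 6 were called higher in each mutant, 0 lower in CARM1 knockout and 1, the Rac exchange factor Tiam1, lower in the NFIB mutant, beside 20.5% and 22.3% of all genes called higher and 18.3% and 23.5% called lower. Dok1, an adaptor, went from 3.79, 1.75 and 0.177 CPM in TKO to 43.3, 42.2 and 51.9 CPM and 49.8, 62.8 and 73.7 CPM in the mutants. Rhoa, the GTPase of stress fibres, went from 169, 159 and 163 CPM to 423, 453 and 370 CPM and 344, 620 and 439 CPM, and Sdc2, a proteoglycan clustered by EphB2, rose by log2 1.83 and 1.84. The remaining genes of the 6 were Rac1, Cdc42 and Ryk, named here to complete the count. The median log2 fold change of the list was 0.32 and 0.35.

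Reverse signalling had 11 genes, with 1 called higher and 3 lower in CARM1 knockout and 2 and 3 in the NFIB mutant, where all genes gave 20.5% and 18.3%, and 22.3% and 23.5%. Ptpn13, a phosphatase with PDZ domains that can act on ephrin-B, rose by log2 1.82 and 2.47. The PDZ scaffolds Grip2 and Pick1 fell. Grip2 was at 23.6, 15.2 and 24.5 CPM in TKO and had 2 counts over the 3 libraries of each mutant together, under the detection limit in every one. The pooled ratios, which rest on these 2 counts, were 523-fold (95% exact counting interval 144 to 4319) and 509-fold (141 to 4207). Pick1 fell by 1.65 in both on the log2 scale. The median log2 fold change of the list was -0.44 and -0.10.

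Proteases and phosphatases that act on EphB or ephrin-B had 9 genes, with 4 called higher in each mutant, 0 lower in CARM1 knockout and 1 lower in the NFIB mutant. Over all genes the shares were 20.5% and 22.3% higher and 18.3% and 23.5% lower. Mmp2 went from 0.576, 1.57 and 1.68 CPM in TKO to 839, 1111 and 240 CPM in CARM1 knockout and 845, 2397 and 372 CPM in NFIB mutant libraries, far apart in every library. Mmp9 went from 0.131 to 0.487 CPM in TKO to 0.990 to 30.0 CPM and 1.90 to 188 CPM, and the receptor phosphatase Ptprj rose by log2 2.41 and 2.70. Mmp2 and Mmp9 are matrix proteases with many other substrates and are also made by fibroblasts and leukocytes, whose marker sums were higher in the mutant libraries than in TKO. The part of these cells was not tested.

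By shape over the 9 libraries, the genes nearest to each member were found as the smallest root mean square difference of log2 CPM after centring. Nearest to Ephb4 were Dap (0.211) and Kctd11 (0.242), to Ephb3 Gsr (0.192) and Sirt5 (0.194), and to Ephb1 Nell1 (0.270) and Rai2 (0.321). For Ephb6 they were Aldoc (0.560) and Peg3 (0.577). The ligands had Lingo2 (0.379) and Gm27544 (0.382) for Efnb3, Arhgef19 (0.397) and Cdkl3 (0.427) for Efnb2, and Nat8f1 (0.363) and Gm42636 (0.383) for Efnb1. Ephb2 had no close neighbour. The nearest were Xist, the RNA of the inactive X chromosome, at 1.11, and Plcl2 at 1.18. Xist was at 2334, 3307 and 1747 CPM in TKO, 458, 700 and 597 CPM in CARM1 knockout and 5.46, 405 and 439 CPM in NFIB mutant libraries, lowest, like Ephb2, in NFIB mutant replicate 1.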

How the data were processed

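Tumor cells of 3 genotypes were profiled by RNA-seq and ATAC-seq, with 3 libraries per genotype and assay. For RNA-seq the authors deposited raw counts per gene, made with htseq-count after mapping with hisat2 to mm10. For ATAC-seq the authors deposited raw counts per peak on 1 merged peak set, made with featureCounts 1.6.3 per the file header. Columns marked C, KO and N were read as TKO, CARM1 knockout and NFIB mutant. The 5 summary lines of htseq-count entered neither library sizes nor tests. The line for reads outside annotated genes held 10.0 to 12.2% in TKO and 3.65 to 5.17% in mutant libraries. The part of this difference in the contrasts with TKO was not tested.

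Counts were tested with edgeR 4.0.16 in R 4.3.3 (TMM factors, filterByExpr, robust quasi-likelihood test, p adjusted after Benjamini-Hochberg), with 1 fit per assay over its 9 libraries. As in the study's methods, the threshold was an adjusted p of 0.1, with a log2 fold change of 0.8 (genes) or 0.5 (peaks) in either direction. With 3 libraries against 3, exact permutation of the values of 1 gene cannot give a p under 0.1. DESeq2 1.42.0, other scalings, filters and thresholds, a replicate block and leaving out each library were alternatives. Only the main edgeR fit of each assay was tested on simulated counts, for the contrast of CARM1 knockout against TKO.

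Gene spans and exon lengths came from a GENCODE annotation of GRCm38 and promoters and genome windows from RefSeq (GRCm38.p6). The members and lists were chosen with earlier results of these data known. Named peaks were the peak nearest each start and, over all member peaks, up to 4 rises and 4 falls of the mean log2 fold change, called alike in both mutants, with no overlap with TKO and at least 3 log2 CPM in the higher genotype. Up to 3 rises and 3 falls per pathway list were named likewise, and the 2 genes nearest to each member in pattern.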

Additional observations from a re-analysis of the deposited data

How the results depend on the processing

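The calls of Ephb4, Ephb1 and Efnb3 held under each alternative that tested them. Requiring at least 10 counts in every library left 5 members and 33 member peaks in the test, so that 0 members were called lower in either mutant, and 15 peaks were called lower in CARM1 knockout and 20 in the NFIB mutant. DESeq2 called 2 members higher in CARM1 knockout, where leaving out single libraries gave 1 to 2 higher, as it did in the NFIB mutant. The signs of changes near 0 turned. Library totals gave -0.051 for Ephb3 and -0.033 for Ephb2 in CARM1 knockout, and -0.29 for Ephb3 and -0.30 for Efnb1 in the NFIB mutant. A minimum of 10 counts gave -0.036 for Ephb3 and -0.040 for Efnb1 in the NFIB mutant, and median-ratio factors -0.00064 for Efnb1. Without single libraries, Ephb3 ran from -0.028 to 0.46 and Ephb2 from -0.21 to 0.67 in CARM1 knockout, and Ephb3 from -0.11 to 0.28 and Efnb1 from -0.65 to 0.32 in the NFIB mutant. Between the mutants, Efnb2 ran from -0.00096 to 0.81, Ephb3 from -0.056 to 0.43 and Ephb6 from -3.06 to 0.12. The cause was not tested.

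Same-numbered libraries did not deviate together (correlations of -0.30 to 0.12), so the numbers were not taken as pairs. With the replicate block, Ephb6 lost its call in CARM1 knockout (-3.35, adjusted p = 0.138), Efnb1 in the NFIB mutant was -0.0033, and no other member's call changed. Scaling by library totals moved the median of all genes by -0.27 and -0.32 and of all peaks by 0.57 in both contrasts. All genes called then split into 2511 higher and 3848 lower in CARM1 knockout (TMM 3185 and 2836) and 2691 and 4809 in the NFIB mutant (3459 and 3640), and all peaks into 52589 and 27241 (42965 and 36019) and 52694 and 29255 (43652 and 37781). Of the member peaks called, 2 in CARM1 knockout and 1 in the NFIB mutant changed sign by totals, and none by the other scalings.

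Depth limited Ephb1 and the low intronic peaks in the mutants, where a few counts set the fold.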
